A study of Homo sapiens with 6 samples.

Results

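The genes described here are the mitochondrially encoded ones, chosen as every row of the deposited table whose symbol begins with MT-. They were 37 of the 60664 genes in the table, namely 2 ribosomal RNA (rRNA), 13 messenger RNA (mRNA) and 22 transfer RNA (tRNA) genes. Of these 28 are annotated on the plus strand of the mitochondrial chromosome and are called heavy-strand genes below, and 9 on its minus strand, called light-strand genes (MT-ND6 and 8 tRNAs). RNA-seq had been used to compare cells carrying a stable short hairpin RNA against PDGFC (genotype shPDGFC, n = 3 libraries) with cells whose hairpin is labelled shNC (n = 3). PDGFC codes for a growth factor of the PDGF family that cells secrete and that activates PDGF receptors. Both groups were cells of the human prostate cancer line LNCaP, named LNCaPE in the sample titles and described as an enzalutamide-resistant derivative. Enzalutamide is an antiandrogen used against prostate cancer, and the labels name no drug in the culture medium. How many hairpin sequences or clones were used is not given in the labels. The labels speak of pooled RNA and leave it unsaid whether the libraries of a group stem from separate cultures. P-values therefore measure library-to-library spread only, which may be technical.

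Mitochondrial DNA is a small circular genome that is transcribed from both of its strands into long precursor RNAs. The heavy-strand precursor carries the rRNAs, most tRNAs and all mRNAs except MT-ND6, which lies on the light-strand precursor with the remaining tRNAs. Nuclear-encoded enzymes cut the tRNAs out of the precursors and so release the mRNAs and rRNAs between them, after which each RNA is stabilised or degraded separately. The mRNAs encode core subunits of respiratory complexes I, III and IV and of the ATP synthase (complex V), and the rRNAs and tRNAs serve only the organelle's own ribosomes.

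Several of these genes abut or overlap, which bears on how their reads can be assigned. The sequences are those of GENCODE release 29 on GRCh38, to which all 37 genes were matched by Ensembl identifier, and each is written 5′ to 3′ on the gene's own strand. The 5 tRNAs with the most reads are shown first, with the anticodon in capitals, because 3 of them passed the test between the groups. MT-TQ reads glutamine codons (chrM:4329-4400, minus strand), MT-TP proline (chrM:15956-16023, minus strand), MT-TS1 serine (chrM:7446-7514, minus strand), MT-TT threonine (chrM:15888-15953, plus strand) and MT-TW tryptophan (chrM:5512-5579, plus strand).
MT-TQ: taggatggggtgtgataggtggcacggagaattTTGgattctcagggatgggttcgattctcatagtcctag
MT-TP: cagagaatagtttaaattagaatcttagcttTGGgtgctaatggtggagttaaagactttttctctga
MT-TS1: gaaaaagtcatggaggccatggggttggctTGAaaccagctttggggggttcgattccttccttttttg
MT-TT: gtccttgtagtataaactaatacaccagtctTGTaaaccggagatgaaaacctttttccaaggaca
MT-TW: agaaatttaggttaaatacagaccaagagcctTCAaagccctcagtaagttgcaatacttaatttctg

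The final 30 bases of 3 coding sequences are shown because these genes end where a gene of the other strand ends, with the final annotated codon in capitals. MT-ND5 (chrM:14119-14148, plus strand) and MT-ND6 (chrM:14149-14178, minus strand) meet end to end with 0 bases between them. MT-CO1 (chrM:7416-7445, plus strand) is followed by MT-TS1 on the other strand, also with 0 bases between.
MT-ND5: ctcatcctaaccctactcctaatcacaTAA
MT-ND6: attgtaattgagattgctcgggggaatAGG
MT-CO1: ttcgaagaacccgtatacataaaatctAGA

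MT-ATP8 and MT-ATP6 share 46 bases, and MT-ND4L and MT-ND4 share 7. Both overlaps are shown with 15 bases on each side and the shared bases in capitals (chrM:8512-8587 and chrM:10745-10781, plus strand). Reads that fall in a shared stretch cannot be told apart between the genes of a pair. The mRNAs are counted by gene below, so the genes of a pair need not be separate transcripts.
MT-ATP8 and MT-ATP6: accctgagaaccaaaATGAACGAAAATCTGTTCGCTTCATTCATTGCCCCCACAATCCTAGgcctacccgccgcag
MT-ND4L and MT-ND4: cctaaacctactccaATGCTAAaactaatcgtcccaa

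The deposited values are RPKM, reads scaled by gene length and by library size, and whole reads could be recovered from them. The 6 libraries held between 17360455 and 23930217 reads, with 14996 to 15400 genes at 1 RPKM or more. PDGFC was at 3.0, 2.43 and 2.52 RPKM in the shPDGFC libraries, against 8.19, 8.71 and 8.13 RPKM in the shNC libraries, and its change on the log2(RPKM + 1) scale, shPDGFC minus shNC, was -1.36 ± 0.0661 (SE; limma, adjusted p = 0.000157). Of 7 prostate and androgen-target genes listed as LNCaP markers, 4 reached 1 RPKM in all 6 libraries, among them HOXB13. KLK3 and KLK2, the genes for prostate-specific antigen and its relative, were near 0 and TMPRSS2 averaged 0.449 RPKM in shPDGFC and 0.628 RPKM in shNC, so defining androgen targets of the labelled line were nearly absent.

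Mitochondrial RNA took a larger share of the reads in all 3 shPDGFC libraries than in the 3 shNC libraries, and within it the balance moved towards mRNA. Of all reads, mitochondrial genes held 4.25%, 4.73% and 4.25% in shPDGFC, against 3.81%, 4.13% and 3.93% in shNC. The means were 4.41% ± 0.278 in shPDGFC and 3.96% ± 0.165 in shNC (SD, n = 3 each), a difference of 0.452 percentage points (exact two-sided permutation test, p = 0.1). With 3 libraries against 3, 0.1 is the smallest p this test can give. The difference was 0.292 without shPDGFC replicate 2 and 0.377 without shNC replicate 1 (exact permutation test, p = 0.2 and 0.3). Because reads were scaled to the library's total in bulk RNA, more mitochondrial RNA per cell, less other RNA per cell and a change in part of the cells cannot be told apart.

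Within the mitochondrial reads, mRNA took 82.8%, 83.4% and 83.0% in shPDGFC, against 80.2%, 81.3% and 81.2% in shNC. The rRNA genes took 17.1%, 16.6% and 16.996% in shPDGFC, against 19.8%, 18.6% and 18.8% in shNC, so every shPDGFC library lay below every shNC library. The tRNA genes took 0.0393% ± 0.00426 in shPDGFC and 0.0546% ± 0.00397 in shNC (SD, n = 3 each). None of the 3 class shares overlapped between the groups, and each gave p = 0.1 by the exact permutation test, also after Benjamini-Hochberg adjustment over the 3 classes.

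As shares of the whole library the classes differed in direction. Of all reads, the rRNA genes held 0.744% ± 0.0337 in shPDGFC and 0.753% ± 0.0159 in shNC (SD, n = 3 each), with overlapping groups (exact permutation test, p = 0.7). The 12 heavy-strand mRNAs stood at 3.65% ± 0.244 in shPDGFC and 3.19% ± 0.156 in shNC (SD, n = 3 each), without overlap (exact permutation test, p = 0.1). In reads per 1000000 of the library, light-strand genes had 96.4, 101 and 105 in shPDGFC, against 135, 123 and 129 in shNC, also without overlap and in the opposite direction (exact permutation test, p = 0.1).

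**Figure D1:**
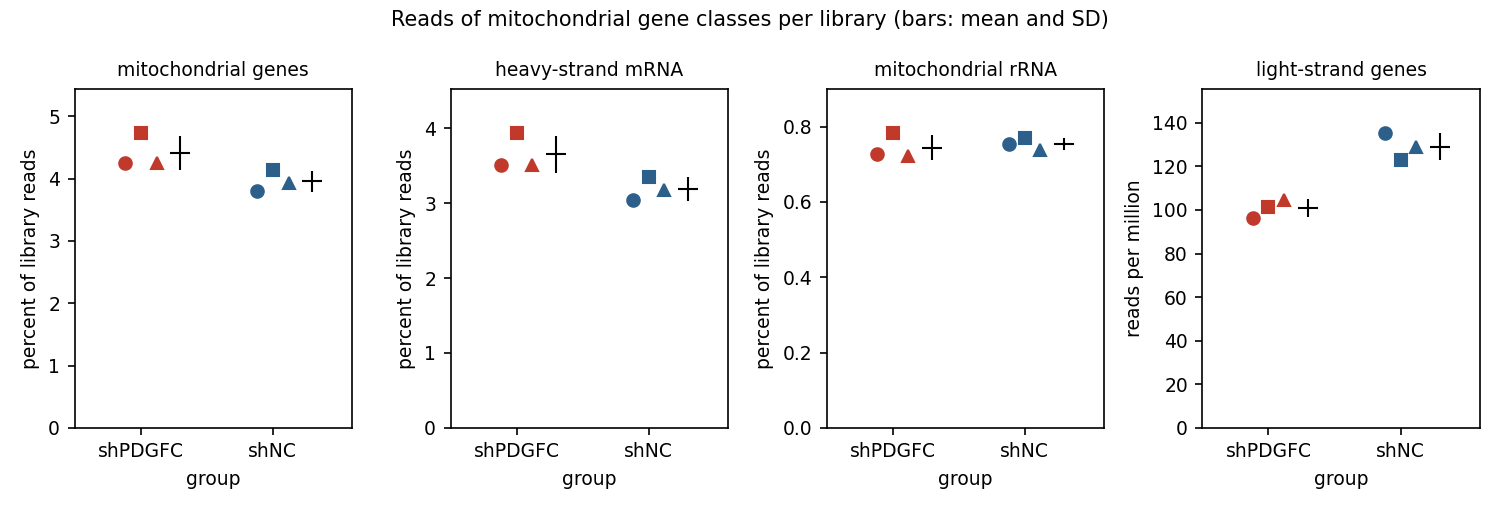
Reads of the mitochondrial classes as a share of each library, with the 3 shPDGFC libraries left of the 3 shNC libraries; points are libraries and black lines are group means. Heavy-strand mRNA was higher in all 3 shPDGFC libraries (mean 3.65% against 3.19%), rRNA overlapped, and light-strand genes were lower (mean 100.8 against 129.0 reads per 1000000).

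Gene by gene, 23 of the 37 reached the filter of 1 RPKM in at least 3 libraries and were tested together with all other genes of the table, 15337 in all. Of the 23, 3 rose (MT-ND2, MT-ND5 and MT-CYB) and 4 fell (MT-ND6, MT-TQ, MT-TP and MT-TW), with limma at an adjusted p under 0.05. Over all tested genes 14.2% were called higher and 15.6% lower, so the shares among these 23 genes, 13.04% and 17.4%, were near the background. In 7 of the 23 the groups did not overlap with shPDGFC higher and in 4 with shPDGFC lower, where 21.7% and 25.1% of all tested genes did so. The calls split by strand and class: the 3 that rose were heavy-strand mRNAs, and those that fell were 3 of the 7 tested light-strand genes and 1 heavy-strand tRNA.

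All 7 tested light-strand genes had a log2 change below 0, with a median of -0.36, against -0.01 over all tested genes. Of these 7, 6 are tRNAs, and both tested heavy-strand tRNAs also lay below 0 (median -0.42). Strand and tRNA class therefore largely coincide among the genes below 0, and MT-ND6 is the 1 light-strand gene that is not a tRNA. MT-ND6 encodes a membrane subunit of complex I (ENSG00000198695, chrM:14149-14673, minus strand). It was at 154, 168 and 171 RPKM in the shPDGFC libraries, against 224, 200.4 and 210.1 RPKM in the shNC libraries. All 3 shPDGFC libraries lay below the 3 shNC libraries, on 1404, 1840 and 1805 reads in shPDGFC and 2810, 1921 and 2532 reads in shNC. MT-ND6 fell, with a mean of 164 ± 8.95 RPKM in shPDGFC and 211 ± 11.7 RPKM in shNC (SD, n = 3 each) and a log2 change of -0.36 ± 0.0519 (SE; limma, adjusted p = 0.00303).

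The proline tRNA gene MT-TP (ENSG00000210196, chrM:15956-16023, minus strand) was at 72.8, 58.4 and 66.5 RPKM in the shPDGFC libraries, against 84.8, 86.2 and 92.9 RPKM in the shNC libraries. The groups did not overlap, and MT-TP fell, with a log2 change of -0.42 ± 0.0763 (SE; limma, adjusted p = 0.00730). The glutamine tRNA gene MT-TQ (ENSG00000210107, chrM:4329-4400, minus strand) was at 80.8, 79.1 and 77.3 RPKM in the shPDGFC libraries, against 87.1, 86.0 and 88.3 RPKM in the shNC libraries. It fell by less, with a log2 change of -0.14 ± 0.0247 (SE; limma, adjusted p = 0.00663). These were the most deeply covered tRNAs, MT-TQ with 101, 119 and 112 reads in shPDGFC and 150, 113 and 146 reads in shNC and MT-TP with 86, 83 and 91 reads in shPDGFC and 138, 107 and 145 reads in shNC. The SD of MT-TQ within groups, 1.74 RPKM in shPDGFC and 1.18 RPKM in shNC, was narrower than counting error on so few reads. Its SE and p-value may therefore understate the error.

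Both MT-ND6 and MT-TP passed under all 14 alternative settings. MT-TQ did so under 13 and not with limma-voom on the recovered reads (adjusted p = 0.315). The serine tRNA gene MT-TS1 (ENSG00000210151, chrM:7446-7514, minus strand) was at 52.6, 45.1 and 57.6 RPKM in the shPDGFC libraries, against 59.4, 67.5 and 57.4 RPKM in the shNC libraries. Its groups overlapped slightly and it did not pass, with a log2 change of -0.25 ± 0.0933 (SE; limma, adjusted p = 0.0865), but it passed without shPDGFC replicate 3 (0.0434). The other tested light-strand tRNAs were MT-TA for alanine, MT-TY for tyrosine and MT-TE for glutamate, on 57, 32 and 64 reads over the 6 libraries. Their log2 changes were -0.95, -1.04 and -0.27, and none passed the limma test (adjusted p = 0.289, 0.116 and 0.416). These values rested on single libraries. With 1 library left out they ranged between -1.76 and -0.53 for MT-TA, -1.57 and -0.65 for MT-TY and -0.45 and -0.0021 for MT-TE. MT-TA passed without shNC replicate 2 (limma, adjusted p = 0.00366) and MT-TY without shPDGFC replicate 1 (0.00804) or with limma-voom (0.0420).

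Within the organelle MT-ND6 took a smaller share of the mRNA reads. Of the mitochondrial mRNA reads it held 0.230%, 0.223% and 0.255% in shPDGFC, against 0.385%, 0.313% and 0.346% in shNC. The groups did not overlap (exact permutation test, p = 0.1). Set against its neighbour MT-ND5, which lies end to end with it on the other strand, the RPKM of MT-ND6 was 6.80%, 6.31% and 7.43% in shPDGFC, against 13.1%, 9.62% and 10.8% in shNC. The sources used here do not say whether counting used the strand of the reads. Without it, reads of the heavy-strand precursor over a light-strand gene cannot be told apart from that gene's own transcripts.

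**Figure D2:**
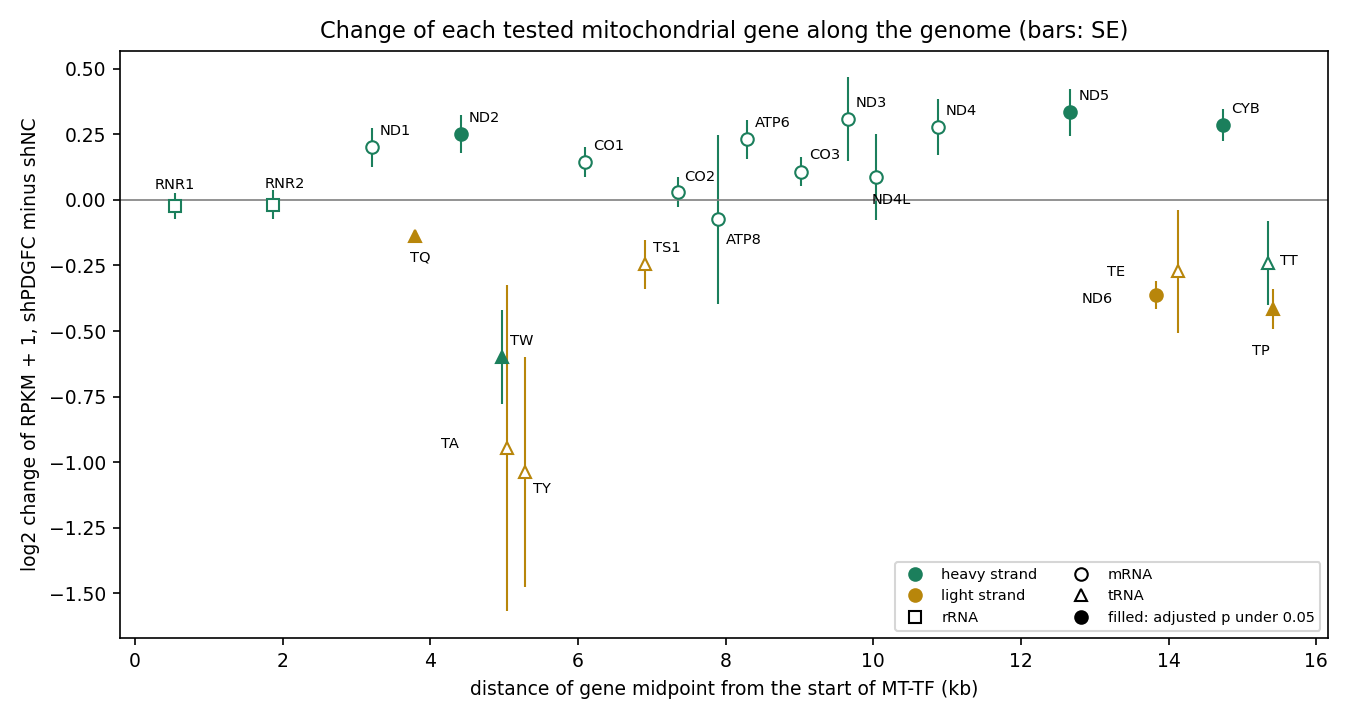
Log2 change in RPKM + 1, shPDGFC minus shNC, of the 23 tested mitochondrial genes against the distance of each gene's midpoint from the start of MT-TF in kb; bars are SE, colours mark the strand, shapes the class, and filled symbols an adjusted p under 0.05. The heavy-strand mRNAs lie above 0 with the exception of MT-ATP8, and all 7 light-strand genes and both heavy-strand tRNAs lie below 0.

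Among the 12 heavy-strand mRNAs 11 had a log2 change above 0, with a median of 0.22, and 3 rose (25%, against 14.2% of all tested genes). In 7 of the 12 (58.3%) every shPDGFC library lay above every shNC library, against 21.7% of all tested genes. The 12 genes share a precursor and the same libraries, and MT-ATP8 overlaps MT-ATP6 as MT-ND4L does MT-ND4. The 12 therefore do not count as independent, nor as 12 separate transcripts. MT-CYB encodes cytochrome b, the mitochondrial subunit of complex III (ENSG00000198727, chrM:14747-15887, plus strand). It was at 2025, 2244 and 1947 RPKM in the shPDGFC libraries, against 1636, 1771 and 1687 RPKM in the shNC libraries. MT-CYB rose, with a mean of 2072 ± 154 RPKM in shPDGFC and 1698 ± 67.7 RPKM in shNC (SD, n = 3 each) and a log2 change of 0.29 ± 0.0617 (SE; limma, adjusted p = 0.0133). That call was lost without shNC replicate 1 (limma, adjusted p = 0.0524).

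Complex I has 6 subunits read from the heavy strand, of which 2 rose (33.3%, against 14.2% of all tested genes). MT-ND5, a subunit of its proton-pumping arm (ENSG00000198786, chrM:12337-14148, plus strand), was at 2266, 2657 and 2299 RPKM in the shPDGFC libraries, against 1709, 2084 and 1938 RPKM in the shNC libraries. The groups did not overlap and MT-ND5 rose, with a log2 change of 0.33 ± 0.0897 (SE; limma, adjusted p = 0.0288). MT-ND2, another subunit of the membrane arm (ENSG00000198763, chrM:4470-5511, plus strand), was at 1944, 2170.2 and 1909.9 RPKM in the shPDGFC libraries, against 1544, 1803 and 1719 RPKM in the shNC libraries. It too showed no overlap and rose, with a log2 change of 0.25 ± 0.0733 (SE; limma, adjusted p = 0.0386). The call for MT-ND5 was lost without shPDGFC replicate 2 or 3 or shNC replicate 1 or 3 (limma, adjusted p between 0.0529 and 0.0808), and that for MT-ND2 when any library other than shNC replicate 2 was left out (0.0551 to 0.113). With no filter both calls were lost (limma, adjusted p = 0.137 for MT-ND5 and 0.177 for MT-ND2). MT-ND2 also lost its call with at least 10 reads in 3 libraries (limma, adjusted p = 0.0652) and with upper-quartile scaling (0.0528).

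The other complex I mRNAs did not pass. MT-ND4, a subunit of the membrane arm (ENSG00000198886, chrM:10760-12137, plus strand), was at 2980.3, 3644 and 2989 RPKM in the shPDGFC libraries, against 2333, 2899 and 2693 RPKM in the shNC libraries. Its groups did not overlap, its log2 change was 0.28 ± 0.106 (SE; limma, adjusted p = 0.0883), and it passed with limma-voom (adjusted p = 0.000138). MT-ND1 (ENSG00000198888, chrM:3307-4262, plus strand), which lies at the quinone-binding junction of the complex, was at 1778, 2080.4 and 1994 RPKM in the shPDGFC libraries, against 1609, 1833 and 1647 RPKM in the shNC libraries. Its groups overlapped, with a log2 change of 0.20 ± 0.0741 (SE; limma, adjusted p = 0.0800), and MT-ND1 passed without shPDGFC replicate 1 (adjusted p = 0.0348) or shNC replicate 2 (0.0462) and with limma-voom (0.000126).

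MT-ND3 (ENSG00000198840, chrM:10059-10404, plus strand) and MT-ND4L (ENSG00000212907, chrM:10470-10766, plus strand) are small membrane subunits of complex I. MT-ND3 was at 2878, 4469.8 and 3173 RPKM in the shPDGFC libraries, against 2497, 2947 and 2924 RPKM in the shNC libraries. MT-ND4L was at 2217, 3458 and 2320.4 RPKM in the shPDGFC libraries, against 2599, 2231 and 2555 RPKM in the shNC libraries. In both, shPDGFC replicate 2 stood far above the other 5 libraries, which overlapped. Their log2 changes were 0.31 and 0.09 (limma, adjusted p = 0.185 and 0.723), and without shPDGFC replicate 2 they were 0.12 and -0.11. MT-ND3 passed with limma-voom (adjusted p = 0.00334).

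Complex IV, cytochrome c oxidase, has 3 mitochondrially encoded subunits, and 0 of their mRNAs passed with limma, against 1 at an unadjusted p under 0.05 and 2 with limma-voom. MT-CO1, the catalytic subunit and the most abundant mitochondrial mRNA here (ENSG00000198804, chrM:5904-7445, plus strand), was at 6876, 7185 and 6932 RPKM in the shPDGFC libraries, against 6209.6, 6495 and 6293 RPKM in the shNC libraries. MT-CO3, another core subunit (ENSG00000198938, chrM:9207-9990, plus strand), was at 4472, 4692 and 4352 RPKM in the shPDGFC libraries, against 4200.4, 4309.9 and 4034 RPKM in the shNC libraries. In both genes the groups did not overlap, with log2 changes of 0.14 and 0.11 (limma, adjusted p = 0.0924 and 0.180). MT-CO2, which carries the site that takes electrons from cytochrome c (ENSG00000198712, chrM:7586-8269, plus strand), was at 4352, 4330.1 and 4042 RPKM in the shPDGFC libraries, against 4044, 4339 and 4065 RPKM in the shNC libraries. Its groups overlapped, with a log2 change of 0.03 (limma, adjusted p = 0.712).

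Complex V has a pair of mitochondrially encoded subunits on overlapping genes. MT-ATP6, the proton-channel subunit (ENSG00000198899, chrM:8527-9207, plus strand), was at 3038, 3360.4 and 2975 RPKM in the shPDGFC libraries, against 2519, 2906 and 2565 RPKM in the shNC libraries. The groups did not overlap and the log2 change was 0.23 ± 0.0739 (SE; limma, adjusted p = 0.0518), just outside the threshold. It passed without shNC replicate 2 (adjusted p = 0.0245), with a pseudocount of 0.1 (0.0499), scaled to reads outside mitochondrial genes (0.0498), with TMM factors (0.0496) and with limma-voom (1.3e-05). MT-ATP8, a short subunit of the same complex (ENSG00000228253, chrM:8366-8572, plus strand), was at 255, 593 and 278 RPKM in the shPDGFC libraries, against 359, 292 and 469 RPKM in the shNC libraries. Its libraries overlapped widely and its log2 change was -0.07 ± 0.322 (SE; limma, adjusted p = 0.887), with the sign turned by leaving out shPDGFC replicate 1 (0.15), shPDGFC replicate 3 (0.087) or shNC replicate 3 (0.10).

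The number of heavy-strand mRNAs called higher therefore rested on single libraries and on the processing. It was 3 with all libraries, 1 without shPDGFC replicate 2, shPDGFC replicate 3 or shNC replicate 3, 0 without shNC replicate 1 and 5 without shNC replicate 2. With limma-voom on the recovered reads 9 of the 12 passed, and with no filter on low values 0 did. With at least 10 reads in 3 libraries, or with upper-quartile scaling, 2 passed. The direction varied less, since 10 to 12 of the 12 lay above 0 in every setting tried. Without shPDGFC replicate 2 their median was 0.14, with 10 of 12 above 0, whereas the light-strand median was -0.33.

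**Figure D3:**
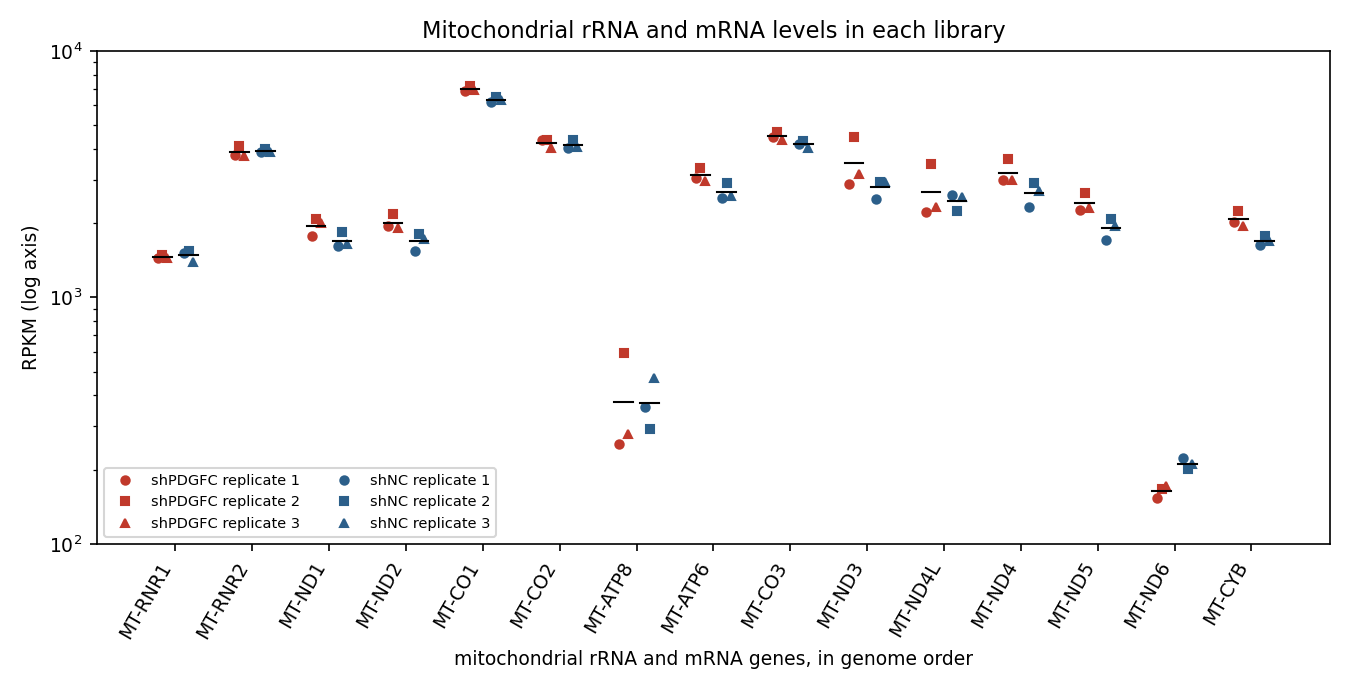
RPKM of the 2 mitochondrial rRNAs and 13 mRNAs in each library on a log axis, with the 3 shPDGFC libraries left of the 3 shNC libraries for each gene; point shapes mark the replicate and black lines the group means. MT-CO1 was the most abundant mRNA and MT-ND6 the least abundant, and MT-ND6 is the one mRNA whose shPDGFC libraries all lie below the shNC libraries.

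The rRNAs of the mitochondrial ribosome did not pass the test. MT-RNR1, the RNA of the small ribosomal subunit (ENSG00000211459, chrM:648-1601, plus strand), was at 1443, 1488 and 1448 RPKM in the shPDGFC libraries, against 1517, 1547 and 1388 RPKM in the shNC libraries. MT-RNR2, that of the large subunit (ENSG00000210082, chrM:1671-3229, plus strand), was at 3783, 4110.0 and 3743 RPKM in the shPDGFC libraries, against 3903, 3988 and 3882 RPKM in the shNC libraries. The groups overlapped in both, and 0 of the 2 had an unadjusted p under 0.05 or passed with limma-voom. Their log2 changes were -0.02 ± 0.0489 (SE; limma, adjusted p = 0.763) for MT-RNR1 and -0.02 ± 0.0545 (SE; limma, adjusted p = 0.833) for MT-RNR2. Set against the heavy-strand mRNAs, with which they share a precursor, rRNA reads amounted to 20.7%, 19.9% and 20.5% in shPDGFC, against 24.8%, 23.0% and 23.2% in shNC (exact permutation test, p = 0.1).

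The tRNAs were scarce, with 2413 of the 5147373 mitochondrial reads in all. Of the 22 tRNA genes 8 were tested, all 8 had a log2 change below 0, and 3 fell (37.5%, against 15.6% of all tested genes). On the heavy strand, MT-TW, the tryptophan tRNA (ENSG00000210117, chrM:5512-5579, plus strand), was at 13.6, 12.7 and 14.6 RPKM in the shPDGFC libraries, against 29.5, 17.7 and 17.9 RPKM in the shNC libraries. The groups did not overlap, shNC replicate 1 was far above the other 5 libraries, and MT-TW fell, with a log2 change of -0.60 ± 0.178 (SE; limma, adjusted p = 0.0409). On 16, 18 and 20 reads in shPDGFC and 48, 22 and 28 reads in shNC, that call was lost when any one of the shPDGFC libraries was left out (limma, adjusted p between 0.0724 and 0.102). The call was also lost with limma-voom on the recovered reads (adjusted p = 0.0540) and with limma and no filter (adjusted p = 0.130). MT-TT, the threonine tRNA (ENSG00000210195, chrM:15888-15953, plus strand), was at 18.3, 28.3 and 28.6 RPKM in the shPDGFC libraries, against 31.0, 26.6 and 30.4 RPKM in the shNC libraries, with overlap and a log2 change of -0.24 ± 0.160 (SE; limma, adjusted p = 0.292), which was -0.039 without shPDGFC replicate 1.

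The remaining 14 tRNA genes were not tested. In 11 of them no read was counted, and MT-TF, MT-TI and MT-TC had at most 3 reads in any library. For a gene of 69 bases, 3 reads amounted to between 1.82 and 2.50 RPKM in these libraries, which is the level that a count of 0 allows, and such floors cover counting error only. Of the tRNA reads, 84.6% ± 2.87 in shPDGFC and 83.8% ± 2.31 in shNC came from the light strand (SD, n = 3 each), with overlapping groups (exact permutation test, p = 0.8). Light-strand tRNAs together had 15.5, 13.4 and 14.9 in shPDGFC, against 17.8, 17.6 and 18.8 in shNC, in reads per 1000000 of the library. Heavy-strand tRNAs had 2.13, 2.82 and 2.98 in shPDGFC, against 4.14, 3.12 and 3.22 in shNC, on the same scale. On both strands every shPDGFC library lay below the shNC libraries (exact permutation test, p = 0.1 for each).

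In shPDGFC the 3 shortest mRNA genes varied most between libraries. The coefficient of variation was 50.4% for MT-ATP8, 25.8% for MT-ND4L and 24.1% for MT-ND3. It was 2.35% for MT-CO1 and 5.45% for MT-ND6. In shNC it was 24.1% for MT-ATP8, 10.8% for MT-ND4, 9.89% for MT-ND5, 9.08% for MT-ND3 and 8.16% for MT-ND4L. Relative to the mean of the other shPDGFC libraries, shPDGFC replicate 2 held 2.23 times the MT-ATP8 level, 1.52 times that of MT-ND4L and 1.48 times that of MT-ND3, but 1.03 times that of MT-ND6. This library had the highest level of the 6 in 11 of the 12 heavy-strand mRNAs, and shNC replicate 2 was the highest of its own group in 10. What set these libraries apart was not tested.

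**Figure D4:**
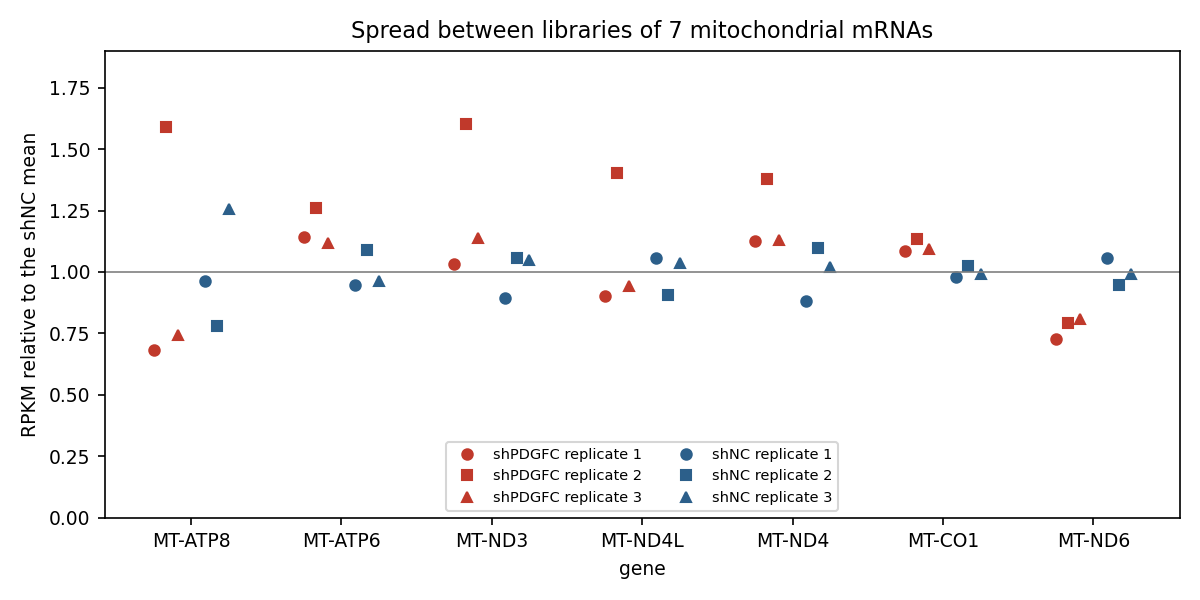
Level of 7 mitochondrial mRNAs in each library, as a ratio to the gene's shNC mean, with shPDGFC libraries left of shNC libraries. In shPDGFC, MT-ATP8, MT-ND4L and MT-ND3 spread most, with replicate 2 above the other shPDGFC libraries. MT-CO1 and MT-ND6 spread little within either group, with the shPDGFC libraries above 1 for MT-CO1 and below 1 for MT-ND6.

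Position and base composition were described without a test. Over the 14 heavy-strand rRNA and mRNA genes, Spearman's rho between the distance of the midpoint from the start of MT-TF and the log2 change was 0.63, and over the 12 mRNAs it was 0.49. The genes share their libraries and adjoining sequence, so these values only describe the order along the precursor. Light-strand genes were 23.5% to 36.1% G on their own strand and heavy-strand genes 6.28% to 19.1% G. These ranges did not overlap, so strand and base composition cannot be told apart. The heavy-strand tRNAs MT-TW and MT-TT, at 16.2% and 16.7% G, had log2 changes of -0.60 and -0.24, below 0 like the other tested tRNAs. MT-TT did not pass, and the call for MT-TW rested on few reads. Whether strand or composition bears on the changes was not tested.

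Nuclear copies of mitochondrial genes can share reads with these genes. The table held 417 such pseudogenes, of which 74 had reads and 4 were tested, with 0 called higher and 0 lower by limma (1 higher at an unadjusted p under 0.05, 2 higher with limma-voom). MTATP6P1, a copy of MT-ATP6, held 91.2% of their reads and was at 318, 484 and 385 RPKM in the shPDGFC libraries, against 332, 298 and 352 RPKM in the shNC libraries (limma, adjusted p = 0.218). As with MT-ATP8, shPDGFC replicate 2 was the highest of its group. MTCO1P12 averaged 10.9 RPKM in shPDGFC and 9.22 RPKM in shNC (limma, adjusted p = 0.128). MTND2P28 averaged 5.73 RPKM in shPDGFC and 5.51 RPKM in shNC (limma, adjusted p = 0.763). All copies together amounted to between 0.538% and 0.756% of the mitochondrial reads of a library.

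Nuclear genes that serve mitochondrial gene expression were called in both directions, at shares no higher than the background. Of 66 tested, 7 rose (10.6%) and 10 fell (15.2%), where 14.2% and 15.6% of all tested genes did so, and their median log2 change was 0.0046. Of the 10 tested transcription genes 0 passed with limma, against 3 at an unadjusted p under 0.05 and 1 with limma-voom. TFAM, which packages mitochondrial DNA and activates its promoters, averaged 33.2 ± 0.655 RPKM in shPDGFC and 32.3 ± 0.630 RPKM in shNC (SD, n = 3 each), with no call (limma, adjusted p = 0.335). POLRMT, the mitochondrial RNA polymerase, averaged 15.1 RPKM in shPDGFC and 14.3 RPKM in shNC (adjusted p = 0.164). TFB2M, the initiation factor that opens the promoter, averaged 7.86 RPKM in shPDGFC and 6.96 RPKM in shNC, and TEFM, the elongation factor, 26.1 RPKM in shPDGFC and 28.1 RPKM in shNC (limma, adjusted p = 0.117 and 0.140). Leaving out shPDGFC replicate 2 made TEFM pass as lower (limma, adjusted p = 0.0139). LRPPRC and SLIRP form a complex that stabilises mitochondrial mRNAs. LRPPRC averaged 75.7 RPKM in shPDGFC and 77.6 RPKM in shNC and did not pass (limma, adjusted p = 0.236). SLIRP, likewise outside the threshold, averaged 228 RPKM in shPDGFC and 218 RPKM in shNC (limma, adjusted p = 0.607).

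Of the 17 genes for RNA processing and modification 5 rose and 2 fell, on the background of 14.2% higher and 15.6% lower. The 5 became 1 to 3 when any 1 library was left out. ELAC2, which cuts the 3′ ends of mitochondrial tRNAs from the precursors, was at 32.4, 32.0 and 32.8 RPKM in the shPDGFC libraries, against 26.9, 26.9 and 26.0 RPKM in the shNC libraries. The groups did not overlap and ELAC2 rose, with a log2 change of 0.27 ± 0.0250 (SE; limma, adjusted p = 0.000766). FASTKD5, which is needed to process precursor junctions that lack a tRNA and was listed with RNA stability, also rose, with a mean of 21.1 ± 0.146 RPKM in shPDGFC and 18.7 ± 0.778 RPKM in shNC (SD, n = 3 each) and a log2 change of 0.17 ± 0.0333 (SE; limma, adjusted p = 0.00908). SLC25A33, a pyrimidine nucleotide carrier of the inner mitochondrial membrane listed with DNA maintenance, rose as well, with means of 12.2 ± 0.412 RPKM in shPDGFC and 9.64 ± 0.0645 RPKM in shNC (SD, n = 3 each) and a log2 change of 0.32 ± 0.0330 (SE; limma, adjusted p = 0.00106).

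Among genes for DNA maintenance 1 of 15 rose and 5 fell, and among nuclear regulators 3 of 8 fell, on the same background. The 5 became 3 without shPDGFC replicate 2 or 3. The 3 regulators became 2 when any library other than shNC replicate 2 was left out, with no filter and with the replicate block. YY1, a transcription factor that acts on nuclear genes for mitochondria, fell, with means of 41.8 ± 0.143 RPKM in shPDGFC and 48.9 ± 0.836 RPKM in shNC (SD, n = 3 each) and a log2 change of -0.22 ± 0.0222 (SE; limma, adjusted p = 0.000962). SLC25A36, another pyrimidine nucleotide carrier, fell as well, with a log2 change of -0.23 ± 0.0284 (SE; limma, adjusted p = 0.00182), and so did DGUOK, a deoxynucleoside kinase of the organelle, with -0.18 ± 0.0252 (SE; limma, adjusted p = 0.00271). Of the 16 genes for RNA stability, polyadenylation and decay, FASTKD5 was the 1 that passed. The 6 nuclear genes named here as changed kept their call under all 14 alternatives, while the number called higher was 3 without shPDGFC replicate 3 and 4 without shNC replicate 1 or 2.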

How the data were processed

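Single-end RNA-seq libraries were made from total RNA with an Ion Total RNA-Seq kit, per the labels' protocols. The table that the authors deposited lists 60664 human Ensembl genes under a header without a unit, and its values were read as RPKM from their structure. GRCm38 and mm10, both mouse builds, are named in the submitters' processing notes although the identifiers are human. Not given in the sources used here are the aligner, the counter, the annotation and the use of strand. Coordinates and sequences come from GENCODE release 29 on GRCh38.

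Whole reads were recovered from the RPKM values and gene lengths (tolerance 0.001 reads) for 37040 of 37040 genes with any value, 521 of them after rescaling the length. The design assumed RPKM or counts and used the RPKM test. Genes at 1 RPKM or more in at least 3 libraries, 15337 in all, entered limma 3.58.1 (R 4.3.3) as log2(RPKM + 1), with the variance trend, no block and Benjamini-Hochberg adjustment at 0.05. Fold changes on this scale understate the change of low genes. The fit was tested on simulated data. Shares used exact two-sided permutation tests over libraries. Libraries of a group differed more than sampling noise (chi-square per degree of freedom 1.466 to 2.567; 7.087 to 9.974 between groups), so all 6 were kept.

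All MT- genes are reported; tRNAs get values per library if they passed or were among the 4 with the most reads. Of the nuclear genes, 6 core factors and the 3 higher and 3 lower with the smallest p are named, with the 3 pseudogene copies with the most reads. A listed marker gene is not reported here. The members and lists were chosen with earlier results of these data known. Other settings tried were a pseudocount of 0.1, other filters and scalings, limma-voom, a replicate block and leaving out each library.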

Additional observations from a re-analysis of the deposited data

How the results depend on the processing

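The number of mitochondrial genes called higher was 3 and became 0 with no filter, 9 with limma-voom on recovered reads, 6 with the replicate block (MT-ND1, MT-ND4 and MT-ATP6 added, adjusted p = 0.0490, 0.0423 and 0.0407), and 0 to 5 when 1 library was left out. It was 2 with at least 10 reads in 3 libraries or with upper-quartile scaling. The number called lower, 4, stayed within 1.5 times in all 14 alternatives. Of the nuclear genes for mitochondrial gene expression, 7 were called higher, against 4 with no filter, 4 with upper-quartile scaling and 3 to 6 when 1 library was left out, and 10 were called lower, against 6 with no filter. The cause was not tested. Changes that did not pass and turned sign when a library was left out lay between -0.070 and 0.0085 for MT-RNR1, -0.061 and 0.0069 for MT-RNR2, -0.46 and 0.15 for MT-ATP8 and -0.11 and 0.21 for MT-ND4L. The class shares, the mitochondrial read share and the MT-ND6 share kept direction in every setting run, the read share with differences of 0.292 to 0.541 percentage points when 1 library was left out. The groups did not overlap in these shares, so leaving out a library could not turn their direction. Nor could the replicate block, which gives the same difference. Over all 15337 tested genes same-numbered libraries did not deviate together (correlations -0.10, -0.11 and -0.018). With 3 libraries per group this cannot settle whether the numbers mark pairs. Among the 12 heavy-strand mRNAs, replicate 2 was the highest of its own group in 11 for shPDGFC and in 10 for shNC. Scalings left all-gene medians within 0.1. Counts of tRNA reads limit what can be detected there.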

Other observations

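RNAs that are nuclear-retained or lack a poly(A) tail describe the kind of library. MALAT1 and NEAT1, long noncoding RNAs of the nucleus, are examples. MALAT1 averaged 71.8 RPKM in shPDGFC and 64.6 RPKM in shNC and rose (limma, adjusted p = 0.00323). NEAT1 averaged 30.045 RPKM in shPDGFC and 33.0 RPKM in shNC and fell (limma, adjusted p = 0.0303). The call for NEAT1 was lost when any library other than shNC replicate 2 was left out (adjusted p between 0.0632 and 0.0859). RN7SL1, the RNA of the signal recognition particle, averaged 112 RPKM in shPDGFC and 113 RPKM in shNC, whereas RMRP, RPPH1, RN7SK and RN7SL2 were listed at 0 in all 6 libraries.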
